A study of Mus musculus with 10 samples.

Results

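The genes described here are 10 core components of TGF-beta, activin and SMAD signalling in the mouse. They were chosen by symbol and are 10 of the 48897 rows of each deposited expression table. They comprise 4 ligand genes (Tgfb1, Tgfb2, Tgfb3 and Inhba), 2 receptor genes (Tgfbr1 and Tgfbr2) and 4 SMAD genes (Smad2, Smad3, Smad4 and Smad7). All 10 had a row in both tables and passed the filter on low values in both.

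RNA-seq was compared in 10 samples in 4 groups. Prostate epithelium of C57BL/6 mice aged 3 months was sorted as EpCAM-positive, CD45-negative cells and gave 3 control libraries (A, B and C) and 3 labelled Arid1aPC-/-, called Arid1a KO here. PC denotes deletion by a Cre recombinase under the Probasin promoter, which is active in prostate epithelium, and mice of both groups carry an engineered background, so that the controls are not wild type. The other 4 libraries came from Myc-CaP, a prostate cancer cell line of strain FVB derived from a mouse with a c-Myc transgene, 2 with an empty vector (EV, numbers 1 and 2) and 2 after CRISPR knockout of Arid1a (KO, numbers 1 and 2). The study asked how deletion of Arid1a, which encodes an accessory protein of SWI/SNF chromatin remodellers, changed transcription in these cells. The Myc-CaP samples carry the cell line as their source and a growth text on culture. The study also sequenced epithelial cells sorted from Myc-CaP tumours, so growth in culture is read from the labels and not settled by them. The labels do not say whether replicates came from separate mice or cultures. The study's methods give n = 3 for the mice behind the epithelium samples, without stating that each library is 1 mouse. The p-values then measure the spread between these samples, which may be technical in part.

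Ligands of the TGF-beta family are secreted and bind pairs of receptor kinases on the cell surface. Tgfbr2 binds TGF-beta and activates Tgfbr1, which phosphorylates Smad2 and Smad3. These then join Smad4 and enter the nucleus to control target genes, while Smad7 blocks the activated receptor and is itself induced by the pathway. Activin A, a dimer of the product of Inhba, reaches the same SMADs through its own receptors and is bound by the secreted inhibitor follistatin. In prostate epithelium, TGF-beta is known as a brake on proliferation, and in tumours also as a factor that acts on stroma and immune cells.

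The promoters of the 3 members with the largest fold changes in the epithelium, Inhba, Tgfb1 and Tgfbr1, are shown because these genes were higher together in the same libraries. Each sequence is the 250 bases before the start of the gene from RefSeq on GRCm38.p6, on the strand of the gene and 5′ to 3′. Capitals mark the letters of 4 searched motifs on either strand, namely TGANTCA (the AP-1 site), GGGCGG (the GC box), CAGAC (a SMAD binding element) and TATAAA (the TATA box).
Inhba, chr13:16011601-16011850, plus strand: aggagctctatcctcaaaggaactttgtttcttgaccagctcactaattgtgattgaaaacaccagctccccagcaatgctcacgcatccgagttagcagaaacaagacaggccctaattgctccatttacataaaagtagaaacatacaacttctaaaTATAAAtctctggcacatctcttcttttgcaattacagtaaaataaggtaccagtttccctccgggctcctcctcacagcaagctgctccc
Tgfb1, chr7:25686752-25687001, plus strand: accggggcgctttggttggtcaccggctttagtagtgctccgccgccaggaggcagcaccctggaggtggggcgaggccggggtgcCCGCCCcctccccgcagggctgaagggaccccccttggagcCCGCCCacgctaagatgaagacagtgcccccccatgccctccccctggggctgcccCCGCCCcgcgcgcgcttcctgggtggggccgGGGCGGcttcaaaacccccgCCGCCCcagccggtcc
Tgfbr1, chr4:47352972-47353221, plus strand: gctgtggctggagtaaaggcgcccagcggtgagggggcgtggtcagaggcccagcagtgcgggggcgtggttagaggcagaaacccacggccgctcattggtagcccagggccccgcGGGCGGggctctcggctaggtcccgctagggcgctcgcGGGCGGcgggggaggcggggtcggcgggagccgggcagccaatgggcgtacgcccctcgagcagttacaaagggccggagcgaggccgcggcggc

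The Inhba window differed from the other pair in composition. Its GC content was 43.2%, against a median of 52.4% over 32851 promoter windows of that length, and it held 1 TATAAA that starts 91 bases before the gene and no GC box. The Tgfb1 window was 75.2% GC with 5 GC boxes, and the Tgfbr1 window 74.8% GC with 2 GC boxes, none of them overlapping. A GC box was found in 32.7% of all windows, TATAAA in 12.4%, CAGAC in 42.2% and TGANTCA in 6.75%. RefSeq entries were matched for 6 of the 10 members, the other 3 being Tgfb2, Tgfbr2 and Smad3. The Smad3 window held 2 GC boxes, that of Tgfb2 held 2 CAGAC and 1 TATAAA, and that of Tgfbr2 held 1 CAGAC. A second Tgfbr1 start held 1 CAGAC, and TGANTCA was not in any of these windows. A match is a description of the letters and not a measured binding site.

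Arid1a itself was examined as a check of the labels. In the epithelium, where values are RPKM (reads scaled by gene length and library), it measured 27.8, 21.9 and 26.5 RPKM in the 3 control libraries, against 31.1, 28.8 and 30.8 RPKM in the libraries labelled Arid1a KO. It was thus not reduced in the latter (log2 fold change 0.25 ± 0.09 (SE), limma adjusted p-value 0.0540), and the deposited values per gene cannot show the loss of an exon. Over 15 alternative settings its fold change stayed above 0 (0.05 to 0.42) and passed in 6 of them. Epithelium libraries are therefore named by their labels throughout. In Myc-CaP cells values are TPM (scaled by gene length and to the same sum in each library). There Arid1a fell from 60.5 and 61.0 TPM to 39.5 and 40.3 TPM. The log2 fold change was -0.59 ± 0.06 (SE, limma adjusted p-value 0.0102). It ran from -0.61 to -0.58 over 12 alternative settings, which include leaving out each library. The call was lost with any 1 of the 4 libraries left out. Those fits hold a lone library in a group and lost most calls of all genes. The estimated depth of the epithelium libraries was 28.8 to 36.3 in units of 1e+06 reads, and the relative depth of the Myc-CaP libraries ranged from 1.0 to 1.15. Epcam, which defines the sorted cells, was present in all 6 epithelium libraries, at 279 to 351 RPKM in the control libraries and 183 to 225 RPKM in those labelled Arid1a KO. In Myc-CaP cells Epcam was listed at 0 in 3 libraries and at 0.13 TPM in KO library 2, so this epithelial marker was at or near 0 in this line. The 7 epithelial markers summed to 1.21 and 1.88 TPM in the EV libraries and to 45.1 TPM in each KO library.

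In the sorted epithelium, 6 of the 10 genes rose with the Arid1a KO label and 0 fell. Inhba rose most, followed by Tgfbr1 and Tgfb1, while Smad7, Smad3 and Tgfbr2 rose by less. Tgfb2, Tgfb3, Smad2 and Smad4 did not pass the test. The test was limma on log2(RPKM + 1) over all 16275 genes whose mean reached 0.5 RPKM, and a gene was called at a Benjamini-Hochberg adjusted p-value under 0.05. The background was high, since 57.1% of all tested genes were called, 27.5% as higher and 29.6% as lower. A share of 6 in 10 is near that background and is not a result about these genes as a group. The median log2 fold change of the 10 genes was 0.34, against -0.03 over all tested genes. At an unadjusted p-value under 0.05 the counts were also 6 higher and 0 lower, where 30.0% of all tested genes were higher and 32.7% lower. No library of one group fell within the range of the other for the 6 called members, and this held for 66.7% of all genes. Under the study's thresholds (1.5-fold or more at an unadjusted p-value under 0.05), 3 members passed, Inhba, Tgfbr1 and Tgfb1, against 24.8% of all genes. With every library rescaled to the same sum, the all-gene median stood at 0.11 instead of -0.03, and 64.6% of the calls were higher instead of 48.1%. The 6 calls were kept after that rescaling, with log2 fold changes from 0.51 for Tgfbr2 to 2.12 for Inhba.

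**Figure D1:**
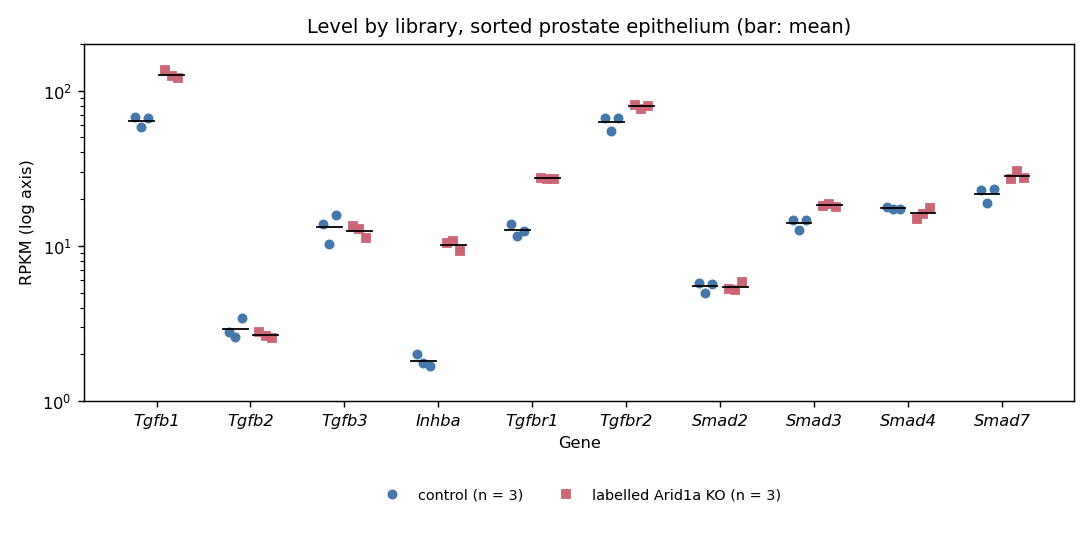
Level of each of the 10 genes in RPKM (log axis) in the 3 control libraries (circles) and the 3 libraries labelled Arid1a KO (squares) of the sorted epithelium, with the mean as a bar. The symbols of Inhba, Tgfb1 and Tgfbr1 lie far apart between the groups, while those of Tgfb2, Tgfb3, Smad2 and Smad4 overlap.

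Inhba (chromosome 13, 16011851 to 16031621, plus strand, GRCm38) encodes the beta A chain of activin A. It measured 2.01, 1.77 and 1.68 RPKM in control libraries A to C and 10.4, 10.7 and 9.31 RPKM in the libraries labelled Arid1a KO. Every library of the second group was well above every library of the first. The means were 1.82 ± 0.17 and 10.1 ± 0.74 RPKM (SD, n = 3 each), a 5.57-fold ratio and a log2 fold change of 1.98 ± 0.08 (SE, limma adjusted p-value 7.39e-06). Over the 15 alternative settings its fold change ran from 1.90 to 2.42 and passed in each. The transcript of follistatin (Fst), the secreted inhibitor that binds activin, did not pass the test. Fst measured 12.4, 9.74 and 13.5 RPKM against 11.3, 13.1 and 10.2 RPKM, with a log2 fold change of -0.03 ± 0.13 (SE) and a limma adjusted p-value of 0.848. The ratio of Inhba to Fst within a library was 0.156 ± 0.029 in the control libraries and 0.884 ± 0.059 in those labelled Arid1a KO (SD, n = 3 each). The groups did not overlap, and the two-sided exact permutation p-value was 0.1, the smallest that 3 libraries against 3 can give.

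Tgfb1 (chromosome 7, 25687002 to 25705077, plus strand) encodes the most widely expressed TGF-beta, which leukocytes and platelets also make. Its level was 67.7, 58.0 and 67.0 RPKM in the control libraries and 136, 125 and 121 RPKM in those labelled Arid1a KO. All libraries labelled Arid1a KO were above all control libraries. The means were 64.3 ± 5.41 and 127 ± 7.65 RPKM (SD, n = 3 per group), a log2 fold change of 0.98 ± 0.08 (SE, limma adjusted p-value 9.24e-05). Tgfb2 (chromosome 1, 186622792 to 186705989, minus strand), a ligand that needs a co-receptor for efficient binding, was low throughout, at 2.78, 2.57 and 3.42 RPKM against 2.79, 2.62 and 2.55 RPKM. Tgfb3 (chromosome 12, 86056745 to 86079041, minus strand) measured 13.8, 10.4 and 15.8 RPKM against 13.5, 12.8 and 11.3 RPKM. For both the groups overlapped, and the 95% interval of the log2 fold change was -0.33 to 0.13 for Tgfb2 and -0.40 to 0.27 for Tgfb3, with limma adjusted p-values of 0.421 and 0.723. The share of Tgfb1 in the summed level of the 3 TGF-beta transcripts was 79.9% ± 2.07 in the control libraries and 89.3% ± 0.36 in those labelled Arid1a KO (SD, n = 3 each). That share did not overlap between groups (two-sided exact permutation p-value 0.1, the smallest possible).

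Both receptor genes rose with the Arid1a KO label. Tgfbr1 (chromosome 4, 47353222 to 47414931, plus strand), the kinase that signals to the SMADs, measured 13.8, 11.6 and 12.6 RPKM in the control libraries and 27.4, 27.1 and 27.2 RPKM in the others. The 3 libraries labelled Arid1a KO lay very close to each other. The log2 fold change was 1.05 ± 0.07 (SE, limma adjusted p-value 4.27e-05), a 2.15-fold ratio of means. Tgfbr2 (chromosome 9, 116084293 to 116175360, minus strand), the ligand-binding kinase, measured 67.1, 55.4 and 66.5 RPKM against 81.5, 76.5 and 79.5 RPKM. Its groups did not overlap either, but the change was smaller, a log2 fold change of 0.33 ± 0.09 (SE, limma adjusted p-value 0.0128). The ratio of Tgfbr1 to Tgfbr2 within a library went from 0.202 ± 0.011 to 0.344 ± 0.0088 (SD, n = 3 each), again without overlap (two-sided exact permutation p-value 0.1, the smallest possible). Tgfbr2 stayed the more abundant of the receptors per length in every library.

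Among the SMAD genes, 2 of 4 rose and the other 2 overlapped between the groups. Of all tested genes 27.5% were called higher, so that count is not a result about the SMAD genes as a group. Smad3 (chromosome 9, 63646767 to 63757994, minus strand), a DNA-binding signal carrier, measured 14.7, 12.7 and 14.7 RPKM in the control libraries and 18.2, 18.7 and 17.9 RPKM in those labelled Arid1a KO, a log2 fold change of 0.36 ± 0.07 (SE, limma adjusted p-value 0.00459). Smad7 (chromosome 18, 75367529 to 75395935, plus strand), the inhibitor and common target of the pathway, measured 22.9, 19.0 and 23.2 RPKM against 26.9, 30.5 and 27.5 RPKM. Its log2 fold change was 0.37 ± 0.09 (SE, limma adjusted p-value 0.0105). For both genes all libraries labelled Arid1a KO were above all control libraries, and neither reached 1.5-fold. Smad2 (chromosome 18, 76241580 to 76310963, plus strand), the other receptor-activated SMAD, was at 5.78, 4.97 and 5.72 RPKM against 5.29, 5.22 and 5.87 RPKM. Smad4 (chromosome 18, 73639009 to 73703780, minus strand), the common partner, was at 17.9, 17.3 and 17.4 RPKM against 15.01, 16.1 and 17.6 RPKM. The 95% interval of the log2 fold change was -0.20 to 0.19 for Smad2 and -0.27 to 0.06 for Smad4, with limma adjusted p-values of 0.961 and 0.221. The signs of these 2 and of Tgfb2 and Tgfb3 turned after rescaling to the same sum. Within a library, Smad3 over Smad2 went from 2.56 ± 0.011 to 3.36 ± 0.28 and Smad7 over Smad4 from 1.24 ± 0.12 to 1.75 ± 0.17 (SD, n = 3 each), both without overlap (two-sided exact permutation p-value 0.1 each, the smallest possible).

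In order of level per length, Tgfb1 (64.3 RPKM) and Tgfbr2 (63.0 RPKM) led in the control libraries with overlapping ranges. Smad7, Smad4, Smad3, Tgfb3 and Tgfbr1 followed between 21.7 and 12.7 RPKM, of which Smad3, Tgfb3 and Tgfbr1 overlapped with their neighbours. Smad2, Tgfb2 and Inhba closed the order, each below the range of the one before. In the libraries labelled Arid1a KO, Tgfb1 (127 RPKM) no longer overlapped Tgfbr2 (79.1 RPKM). Tgfbr1 moved from rank 7 to 4, beside Smad7 with overlapping ranges, and Inhba from rank 10 to 8, above Smad2 and Tgfb2.

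Markers of other cell types moved with the 6 calls, and their part in the results was not tested. The counts of markers here and in the next paragraph stand beside 27.5% of all tested genes called higher and 29.6% lower. Ptprc, which encodes CD45 and should be absent after the sort, measured 30.3, 26.0 and 29.5 RPKM in the control libraries and 56.2, 58.1 and 57.6 RPKM in those labelled Arid1a KO, a log2 fold change of 0.98. That change had the same size as the one of Tgfb1, and Tgfbr1 had a similar one (1.05). Of the members, only Tgfb1 was set against Ptprc. The ratio of Tgfb1 to Ptprc was 2.24 ± 0.023 and 2.22 ± 0.17 (SD, n = 3 each) in the 2 groups and overlapped between them (two-sided exact permutation p-value 1.0). In bulk samples of this kind, fewer cells of a type and less RNA per cell cannot be told apart. Of the 8 leukocyte markers, 7 were higher and 1 lower, and they summed to 1144 to 1208 RPKM in the control libraries and 1485 to 1597 RPKM in the others. All 8 macrophage markers were higher, with sums of 2305 to 2692 and 4130.1 to 4838 RPKM. Of the 7 neutrophil markers 4 were higher and 0 lower, with sums of 337 to 475 and 386 to 637 RPKM.

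Platelets store TGF-beta 1, and of the 8 platelet markers 6 were tested, with 3 higher and 2 lower. Their sums were 36.0 to 40.3 RPKM in the control libraries and 116 to 131 RPKM in those labelled Arid1a KO. Ppbp, a chemokine of platelets and 1 of these 8, went from 0.25 to 0.44 RPKM up to 67.2 to 79.7 RPKM. That gene alone made up most of the rise in the sums, and the median log2 fold change of the tested platelet markers was 0.16. In Myc-CaP cells Ppbp was at 6.63 and 7.18 TPM in the EV libraries and 10.2 and 12.0 TPM in the KO libraries. Fibroblast markers, 4 of 7 lower, summed to 641 to 967 and 559 to 773 RPKM. Of the 6 basal epithelial markers 3 were higher and 0 lower, with sums of 1376 to 1928 and 2427 to 2708 RPKM. Seminal vesicle markers were all lower (8 of 8), with sums of 19464 to 21979 and 647 to 1632 RPKM. Of the 7 T cell markers 4 were higher and 0 lower (sums of 28.3 to 33.1 and 41.1 to 45.4 RPKM), and of the 4 tested B cell markers 3 were higher and 0 lower (8.84 to 10.5 and 11.05 to 20.6 RPKM). Of the 7 smooth muscle markers 2 were higher and 5 lower (153 to 174 and 120 to 149 RPKM), of the 7 endothelial markers 1 was higher and 1 lower (55.3 to 66.9 and 57.9 to 72.8 RPKM), and of the 7 epithelial markers 0 were higher and 3 lower (4744 to 6303 and 4012 to 4406 RPKM). No gene of these lists was listed at 0 in all 6 libraries.

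**Figure D2:**
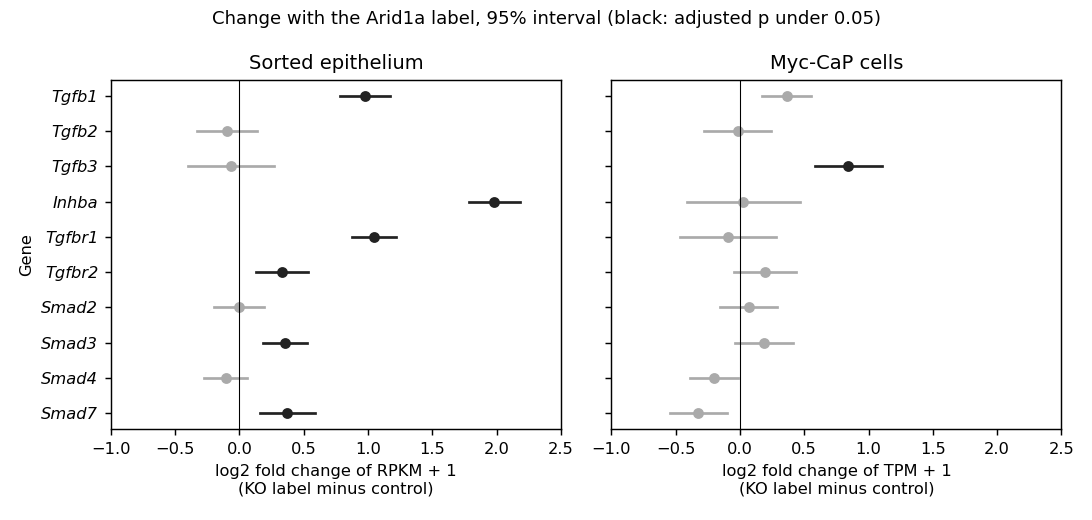
Fold change of the 10 genes on the log2(value + 1) scale, libraries labelled KO minus control, with the 95% interval, in the sorted epithelium (left) and in Myc-CaP cells (right). Black marks an adjusted p-value under 0.05, which 6 genes reached in the epithelium and Tgfb3 alone in Myc-CaP cells.

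Beyond the 10 genes, 64 other genes of the pathway were followed in 5 lists. In the epithelium 59 of them were tested, of which 40 were called (25 rose and 15 fell with the Arid1a KO label). Of all tested genes 57.1% were called in either direction, 27.5% as higher and 29.6% as lower. The counts per list given below stand beside the same shares. Their median log2 fold change was 0.09. The largest rise among them was that of the target gene Fn1 and the largest fall that of the ligand Bmp4. Where a list had 5 or fewer calls in a direction, all are named here, as are all calls among the inhibitors and other SMADs. Those outside the rule on the largest changes were chosen after their values were seen.

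Of the 10 latency and activation genes, 6 rose and 2 fell. Thbs1, whose product thrombospondin-1 activates latent TGF-beta, measured 225, 176 and 223 RPKM in the control libraries and 663, 626 and 518 RPKM in the others, a log2 fold change of 1.53 ± 0.13 (SE, limma adjusted p-value 9.92e-05). Furin, the protease that cuts the TGF-beta precursor, rose from a mean of 47.6 ± 4.58 RPKM to 94.2 ± 4.77 RPKM (SD, n = 3 per group), a log2 fold change of 0.97. Ltbp4, a latent TGF-beta binding protein of the matrix, went from 171 ± 27.9 RPKM down to 46.8 ± 2.24 RPKM, with a log2 fold change of -1.84 ± 0.12 (SE, limma adjusted p-value 3.47e-05), and its relative Ltbp3 had -0.48. Among the 9 other ligands 7 were tested. Bmp4 and Bmp7, ligands that signal to a different set of SMADs, fell from 7.91 ± 1.91 to 1.28 ± 0.28 RPKM and from 7.61 ± 0.49 to 2.02 ± 0.64 RPKM (SD, n = 3 each), log2 fold changes of -1.95 and -1.53 with limma adjusted p-values of 1.07e-04 and 1.65e-04. Bmp6 was higher (log2 fold change 0.50, limma adjusted p-value 0.0243), and its call was lost with no filter on low values (0.0722), without control library B (0.0656), without KO library A (0.0788) and without KO library B (0.0830).

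Of the 11 other receptors 10 were tested, with 3 higher and 3 lower. The higher ones were Acvr1, Bmpr2 and Acvr1b, with log2 fold changes of 0.51, 0.49 and 0.32. The lower ones were Tgfbr3, Bmpr1b and Acvrl1, with -0.79, -0.58 and -0.27. Tgfbr3 encodes betaglycan, the co-receptor that presents TGF-beta 2, and measured 8.39, 6.32 and 8.95 RPKM against 4.24, 3.70 and 4.35 RPKM (limma adjusted p-value 0.00137). It thus differed in direction from Tgfbr1 and Tgfbr2 in the same libraries.

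Of the 17 inhibitors and other SMADs 15 were tested, with 7 higher and 5 lower. Skil, whose product SnoN represses SMAD targets and is itself induced by the pathway, measured 24.0, 20.8 and 23.6 RPKM in the control libraries and 54.6, 58.9 and 50.3 RPKM in those labelled Arid1a KO, a log2 fold change of 1.22 ± 0.08 (SE, limma adjusted p-value 4.16e-05). Pmepa1, a target and inhibitor of the pathway, rose from a mean of 39.8 ± 1.53 RPKM to 65.9 ± 3.15 RPKM (SD, n = 3 per group), a log2 fold change of 0.71. The other rises were Ski, Smurf1, Tgif1, Smad1 and Smurf2, with log2 fold changes of 0.65, 0.62, 0.58, 0.47 and 0.39. The falls were Dcn, Bambi, Smad6, Tgif2 and Smad5, with log2 fold changes of -1.75, -0.47, -0.40, -0.31 and -0.26. Dcn encodes decorin, a matrix proteoglycan of fibroblasts that binds TGF-beta, and fell from 500 ± 69.2 to 147 ± 5.03 RPKM.

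All 17 target genes were tested, with 8 higher and 3 lower. Fn1 (fibronectin) rose from 59.9, 33.6 and 59.6 RPKM to 426, 348 and 305 RPKM, a log2 fold change of 2.83 ± 0.23 (SE, limma adjusted p-value 7.80e-05). Tgfbi, named for its induction by TGF-beta, rose from a mean of 118 ± 6.01 RPKM to 325 ± 16.8 RPKM (SD, n = 3 per group), a log2 fold change of 1.45. Markers of other cell types moved between the same libraries, and their part in the changes of the other pathway genes was not tested. In Myc-CaP cells Tgfbi and Pmepa1 were below the filter, at no more than 0.29 and 0.14 TPM. Fn1 was at 876 to 1250 TPM there. The 3 falls were Id3, Ccn1 and Id1, with log2 fold changes of -1.70, -0.96 and -0.63. Id3 and Id1 encode inhibitors of DNA binding that BMP signals induce. Id3 measured 148, 175 and 157 RPKM in the control libraries against 42.4, 43.6 and 61.9 RPKM.

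**Figure D3:**
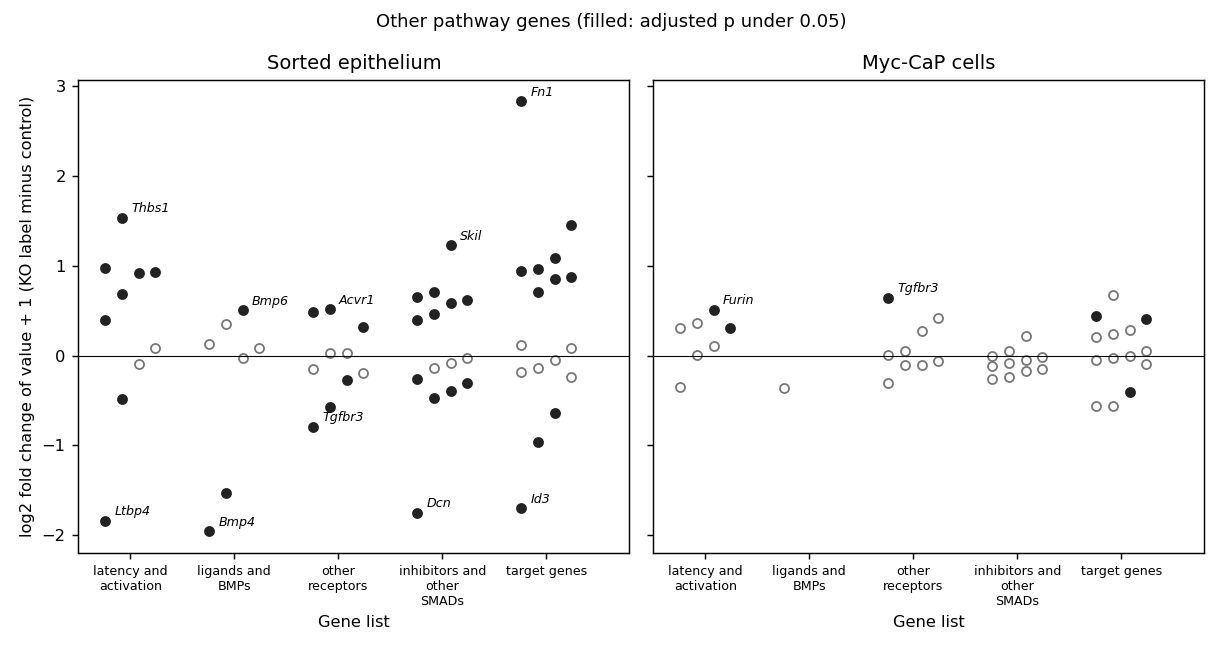
Fold change of the other pathway genes on the log2(value + 1) scale, libraries labelled KO minus control, by gene list, in the sorted epithelium (left, 59 genes) and Myc-CaP cells (right, 42 genes). Filled circles have an adjusted p-value under 0.05, and the log2 fold changes range from -1.95 (Bmp4) to 2.83 (Fn1) in the epithelium and from -0.56 (Col1a1 and Col1a2) to 0.67 (Id3) in Myc-CaP cells.

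In the main fit of Myc-CaP cells, Tgfb3 alone of the 10 genes passed the adjusted threshold, and it was higher after Arid1a knockout. Tgfb1 missed the threshold by a small margin, and the remaining members overlapped between groups or differed by less than the test could call. Of the 13974 tested genes 6.43% were called, 4.54% as higher and 1.89% as lower, and 6.28% passed the study's thresholds, as did 1 member, Tgfb3. At an unadjusted p-value under 0.05, 2 members were higher (Tgfb1 and Tgfb3) and 2 lower (Smad4 and Smad7), where 12.0% of all tested genes were higher and 10.1% lower. For 7 of the 10 members the groups did not overlap, against 51.5% of all genes. The median log2 fold change of the members was 0.05, against -0.01 over all tested genes. With 2 libraries per group, 0.333 is the smallest p-value of an exact permutation test.

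**Figure D4:**
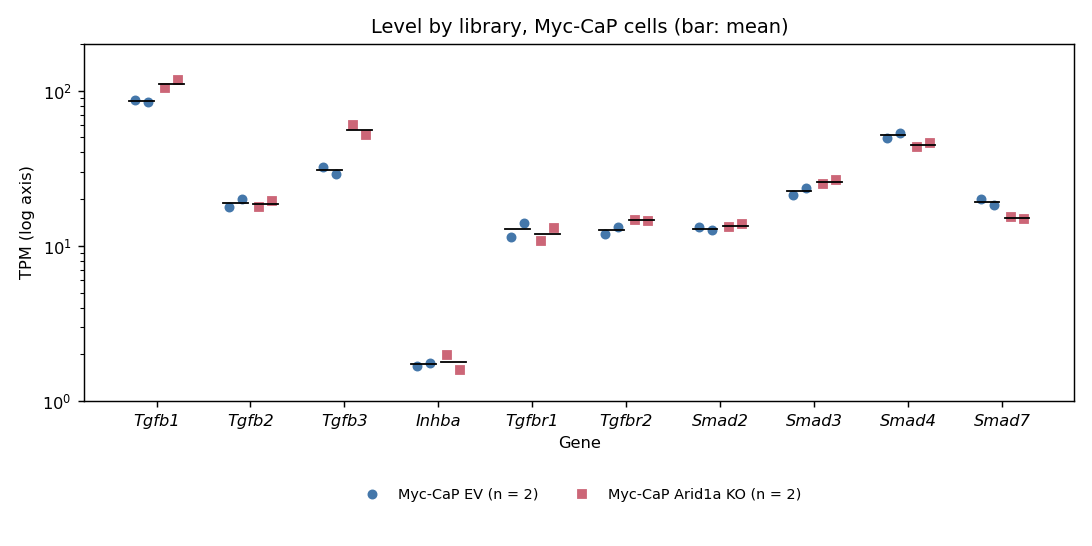
Level of each of the 10 genes in TPM (log axis) in the 2 EV libraries (circles) and the 2 KO libraries (squares) of Myc-CaP cells, with the mean as a bar. Tgfb3 shows the widest gap between the groups, and Inhba is the lowest of the 10 genes in all 4 libraries.

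Tgfb3 measured 32.3 and 29.2 TPM in EV libraries 1 and 2 and 60.3 and 51.6 TPM in KO libraries 1 and 2. Both KO libraries were above both EV libraries by more than the spread within either group. The means were 30.7 ± 2.18 and 55.9 ± 6.10 TPM (SD, n = 2 each), a 1.82-fold ratio and a log2 fold change of 0.84 ± 0.10 (SE, limma adjusted p-value 0.0170). The call was lost with no filter on low values (limma adjusted p-value 0.0548) and without a trend in eBayes (0.0564). It was also lost when any 1 library was left out, in fits that lost most calls of all genes. Over 12 alternative settings, which include leaving out each library, the log2 fold change ran from 0.73 to 0.95. Fibroblast markers, of which 0 of 4 tested were called, summed to 9.46 and 16.3 TPM in the EV libraries and 11.6 and 13.0 TPM in the KO libraries, and their part in this result was not tested. The KO to EV ratio of Tgfb3 was 1.87 between the libraries numbered 1 and 1.77 between those numbered 2.

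Tgfb1 measured 87.5 and 84.2 TPM in the EV libraries and 105 and 117 TPM in the KO libraries, without overlap. The log2 fold change was 0.36 ± 0.07 (SE, limma adjusted p-value 0.0603). Tgfb1 passed in 4 of 12 alternative settings. These were a minimum mean of 5 (limma adjusted p-value 0.0446), removal of a trend on gene length (0.0366), median ratio scaling (0.0477) and a term for the replicate number (0.0171). With that last term 19.8% of all tested genes were called. The 8 leukocyte markers summed to 4.55 to 5.52 TPM in the EV libraries and 4.202 to 4.43 TPM in the KO libraries, with Tyrobp listed at 0 in all 4, and the 8 macrophage markers to 0.82 to 2.92 and 1.59 to 2.58 TPM, with C1qa and C1qc at 0. Platelet markers, with 1 of 4 tested called as higher, summed to 27.3 to 28.6 and 68.5 TPM, and their part in the Tgfb1 values was not tested. Ptprc, the leukocyte marker set beside Tgfb1 in the epithelium, was listed at 0 in 3 of these libraries and at 0.044 TPM in EV library 2. Tgfb2 was at 17.7 and 20.1 TPM against 17.7 and 19.6 TPM, and Inhba at 1.69 and 1.76 TPM against 1.98 and 1.58 TPM. For both the groups overlapped, with log2 fold changes of -0.02 ± 0.10 and 0.03 ± 0.17 (SE). The interval of the Inhba change was -0.41 to 0.46. Fst was listed at 0 in 3 libraries and at 0.046 TPM in KO library 2, so the ratio to follistatin was not formed there.

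Neither receptor passed in Myc-CaP cells. Tgfbr1 measured 11.5 and 14.1 TPM with the empty vector and 10.8 and 13.1 TPM after knockout, overlapping, with a 95% interval of the log2 fold change of -0.47 to 0.28. Tgfbr2 measured 11.9 and 13.3 TPM against 14.8 and 14.4 TPM, a log2 fold change of 0.20 ± 0.09 (SE, limma adjusted p-value 0.308). The ratio of Tgfbr1 to Tgfbr2 was 1.01 ± 0.069 and 0.820 ± 0.12 (SD, n = 2 each), so that the receptors stood at a similar level per length in this line. The exact permutation p-value of that difference was 0.333, the smallest possible.

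None of the SMAD genes passed the adjusted threshold in the main fit of Myc-CaP cells, where limma gave 0 higher and 2 lower at an unadjusted p-value under 0.05. Those counts stand beside 12.0% of all tested genes higher and 10.1% lower. Smad7 measured 20.0 and 18.4 TPM in the EV libraries and 15.5 and 14.8 TPM in the KO libraries. Its groups did not overlap, and the log2 fold change was -0.32 ± 0.08 (SE, limma adjusted p-value 0.107). Smad4 was at 49.7 and 53.5 TPM against 43.1 and 46.1 TPM, with a log2 fold change of -0.20 ± 0.07 (SE) and a limma adjusted p-value of 0.194. With a term for the replicate number, Smad7 and Smad4 passed (limma adjusted p-values 0.0313 and 0.0321), in a fit that called 19.8% of all tested genes. Smad3 was at 21.3 and 23.7 TPM against 24.9 and 26.6 TPM, and Smad2 at 13.16 and 12.6 TPM against 13.19 and 13.9 TPM. Neither of these overlapped between the groups, and their limma adjusted p-values were 0.298 and 0.712.

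In level per length, Tgfb1 was the highest and Inhba the lowest of the 10 genes in Myc-CaP cells, in both groups. With the empty vector the order was Tgfb1, Smad4, Tgfb3, Smad3, Smad7, Tgfb2, Smad2, Tgfbr1, Tgfbr2 and Inhba. Smad7 and Tgfb2 overlapped in their ranges, and so did neighbours among Smad2, Tgfbr1 and Tgfbr2. After knockout Tgfb3 (55.9 TPM) stood above Smad4 (44.6 TPM) without overlap. The share of Tgfb3 in the summed TGF-beta transcripts was 22.7% ± 1.13 with the empty vector and 30.2% ± 3.90 after knockout (SD, n = 2 each), and that of Tgfb1 was 63.4% ± 0.43 and 59.7% ± 3.40. Neither share overlapped between groups (exact permutation p-value 0.333 each, the smallest possible).

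Of the 64 other pathway genes, 42 were tested in Myc-CaP cells, with 5 higher and 1 lower. Those 6 calls stand beside the 6.43% of all tested genes that were called (4.54% higher, 1.89% lower). Each was lost when any 1 of the 4 libraries was left out. Those fits hold a lone library in a group and lost most calls of all genes, so that loss is not particular to these genes. Both of the called latency genes, of 7 tested, were higher. Furin went from 56.5 and 55.0 TPM to 81.5 and 78.1 TPM, a log2 fold change of 0.51 ± 0.06 (SE, limma adjusted p-value 0.0149), and Ltbp1, which anchors latent TGF-beta in the matrix, had 0.30 (limma adjusted p-value 0.0401). Tgfbr3 was the 1 called receptor of 9 tested and rose from 38.9 and 38.8 TPM to 60.4 and 62.0 TPM, a log2 fold change of 0.64 ± 0.06 (SE, limma adjusted p-value 0.00822). Of the 14 tested target genes, Fn1 and Ccn2 (connective tissue growth factor, listed as Ctgf) were higher, with log2 fold changes of 0.44 and 0.41, and Id2, a BMP target, was lower with -0.41. Their limma adjusted p-values were 0.0217, 0.0316 and 0.0262. Of the 11 tested inhibitors and other SMADs 0 passed, and 1 was lower at an unadjusted p-value under 0.05. The 1 tested ligand, Gdf11, did not pass (limma adjusted p-value 0.454). Of the ligands, Bmp2, Bmp7, Inha, Inhbb, Mstn and Nodal were listed at 0 in all 4 libraries.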

How the data were processed

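Per the study's methods, reads were aligned to GRCm38 with TopHat2 and counted per gene and strand with HTSeq-count, while the submitters' processing notes list HISAT2, HTSeq and DESeq2 with mm10. Which aligner made the deposited values is not settled here. The authors deposited RPKM values for the 6 epithelium samples and TPM values for the 4 Myc-CaP samples, in tables of 48897 genes, and the per-sample files held the same values as the tables. Gene lengths behind either unit are not given in the sources used here. Samples were grouped by the genotype label, of which a part shared by all epithelium samples is not reported here.

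Each table was fitted on its own in R 4.3.3 with limma 3.58.1 (lmFit and eBayes, trend included) on log2(value + 1), for genes with a mean of at least 0.5, with no covariate. Fold changes are on that scale, which understates changes of low genes. All p-values were two-sided and were adjusted by Benjamini-Hochberg over all genes of a table. The study used DEGseq on counts, which these units do not allow. Ratios within a library were compared by an exact permutation test over libraries (scipy 1.17.1). Alternatives were a pseudocount of 0.1, no filter, a minimum mean of 5, quantile normalization, median ratio scaling, rescaling to the same sum, removal of a trend on gene length, eBayes without a trend, the replicate block, the study's thresholds and leaving out each replicate. The fit was tested on simulated data. Epithelium depth was estimated from the steps between low RPKM values. Coordinates and lengths were taken from GENCODE M21 (GRCm38), in which 62.2% of row names were found. Tgfb2, Tgfb3, Inhba and Smad4 overlap genes on the opposite strand, and counting is stated to use strand.

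The members and the lists of pathway genes and markers were chosen with earlier results of these data known. The text names all 10 members, the Arid1a label check, up to 3 called genes per pathway list and table with the largest fold change and no overlap between groups, and single cell type markers. Fst and other genes outside that rule are given where a ratio or a count of 5 or fewer needed them. All calls among the inhibitors and other SMADs of the epithelium are named too, and genes compared between the systems. Sequences were read from RefSeq promoters, and motifs were searched on both strands.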

Additional observations from a re-analysis of the deposited data

Results flagged for a closer look

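For Arid1a, the member Smad7 and 8 other pathway genes reported here and tested in both systems, every library labelled Arid1a KO lay on one side of every control library in the epithelium and on the opposite side in Myc-CaP cells. The difference between the 2 systems was not tested for any of them, because the tables were normalized separately and in different units. Groups did not overlap for 66.7% of all tested genes in the epithelium and for 51.5% in Myc-CaP cells. The share of all genes on opposite sides in the 2 systems was not computed. The count is therefore not a result about these genes as a group. Genes on the same side in both systems also occurred and are not all listed. Of the 6 other pathway genes called in Myc-CaP cells, only Tgfbr3 was called in the opposite direction in the epithelium. Furin was called higher in both, with log2 fold changes of 0.97 in the epithelium and 0.51 in Myc-CaP cells. So were Fn1 (2.83 and 0.44), Ccn2 (1.09 and 0.41) and Ltbp1 (0.40 and 0.30). Id2 was not called in the epithelium. Smad7, the inhibitory SMAD, had log2 fold changes of 0.37 in the epithelium and -0.32 in Myc-CaP cells, the latter not past the adjusted threshold. Tgfbr3, the co-receptor betaglycan, had -0.79 and 0.64, both past it. Ltbp4, a latent TGF-beta binding protein, had -1.84 and 0.31, and Bmpr1b, a BMP receptor, had -0.58 and 0.42. Id3, a BMP target, had -1.70 and 0.67. In Myc-CaP cells these 3 genes had limma adjusted p-values of 0.0707, 0.285 and 0.0609. The BMP target Id1 had -0.63 and 0.21, and Ltbp3 had -0.48 and 0.36, with adjusted p-values of 0.114 and 0.0658 in Myc-CaP cells. The ubiquitin ligase genes Smurf1 and Smurf2 had 0.62 and -0.15, and 0.39 and -0.080. Both had adjusted p-values above the threshold in Myc-CaP cells, 0.385 and 0.56. Bmp6 and Ltbp2 were below the filter on low values in Myc-CaP cells and were not tested there. Their groups also lay apart in opposite directions, with Bmp6 at 0.27 and 0.30 TPM in the EV libraries against 0.081 and 0.13 TPM in the KO libraries, and Ltbp2 at 0.26 and 0.59 TPM against 0.081 and 0.19 TPM. Arid1a itself had 0.25 in the libraries labelled Arid1a KO of the epithelium, not past the adjusted threshold, and -0.59 in Myc-CaP cells.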

How the results depend on the processing

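In the epithelium the 6 called members passed under each alternative run except the study's thresholds, which left 3 members and 25 of the other pathway genes. In Myc-CaP cells the study's thresholds left 2 other pathway genes, and testing with no filter on low values left 0 members and 2 others. A minimum mean of 5, removal of the length trend and median ratio scaling each gave 2 members, and eBayes without a trend gave 0 members and 1 other. Leaving out each replicate in Myc-CaP cells left a lone library in a group. Those fits lost most calls of all genes, so no count of members is read from them. At an unadjusted p-value under 0.05, 4 members passed with no filter and 3 without a trend. A lone library left in a group was assumed to vary like the others. Replicate labels are shared between groups. With the replicate block, 4 members (Tgfb1, Tgfb3, Smad4 and Smad7) and 12 others passed in Myc-CaP cells, where the block raised the share of all genes called from 6.43% to 19.8%, and 6 and 40 in the epithelium. Deviations of same-labelled samples correlated at -0.06 to 0.04 in the epithelium, where not every sample correlated best with its own letter. In Myc-CaP cells they correlated at 0.195. With 2 libraries per group the deviations mirror each other, so that is a single value and not the agreement of separate pairs. The labels do not say that a shared letter or number marks a shared culture or day, so the block was not taken as the design. In Myc-CaP cells Smad4 and Smad7 passed only with the block, and Tgfb1 with it and under some other settings. Changes of sign concerned uncalled members. In the epithelium these were Tgfb3 (0.034 after removal of the length trend, 0.10 at the same sum), Smad2 (0.0071 with median ratio scaling, 0.15 at the same sum), Tgfb2 (0.033 at the same sum) and Smad4 (0.060 at the same sum). Leaving out each replicate gave ranges that span 0 for Tgfb3 (-0.22 to 0.062) and Smad2 (-0.064 to 0.028) in the epithelium and for Tgfb2 (-0.10 to 0.071), Inhba (-0.077 to 0.13) and Tgfbr1 (-0.23 to 0.049) in Myc-CaP cells. Inhba in Myc-CaP cells gave -0.023 under quantile normalization. Among the other pathway genes of the epithelium, 25 higher and 15 lower became 27 and 11 at the same sum. Reads per gene were not recovered from RPKM or TPM, so no counting interval is given, and the causes of these changes were not tested.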

Other observations

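In both Myc-CaP groups the library numbered 2 held more transcript of some stromal genes, including Col1a1, Col3a1 and Thbs1, than the library numbered 1. These genes were chosen after their values were seen. Col1a1, a collagen and pathway target, was at 0.21 TPM in EV library 1 and 0.35 TPM in KO library 1, against 19.4 TPM in EV library 2 and 7.45 TPM in KO library 2. Col3a1 was listed at 0 in both libraries numbered 1 and stood at 4.85 and 1.77 TPM in EV library 2 and KO library 2. Thbs1, the activator of latent TGF-beta that rose in the epithelium libraries labelled Arid1a KO, was at 0.058 and 0.041 TPM in the libraries numbered 1 and at 8.402 and 4.86 TPM in those numbered 2. Postn was at 1.61 and 2.55 TPM in EV libraries 1 and 2 but at 4.13 and 3.94 TPM in KO libraries 1 and 2. Pdgfrb was at or under 0.065 TPM in all 4 libraries. Tgfbr1, at 11.5 and 10.8 TPM in the libraries numbered 1 and 14.1 and 13.1 TPM in those numbered 2, was higher in number 2 of both groups. The same held for the members Tgfb2, Smad3 and Smad4, while Tgfb3 and Smad7 were lower in number 2 of both groups.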
